A study of Mus musculus with 24 samples.

Results

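The 5 genes described here, Prg2, Prg3, Epx, Siglecf and Il5ra, are used as markers of eosinophils, and all 5 were among the 18193 genes measured. They were taken by symbol, and each has 1 probe set on the array that is annotated to that symbol alone. Their RNA was measured in sorted mouse hematopoietic progenitors on 24 Affymetrix one-colour arrays, as 8 groups of 3. Mice without Ikaros (KO, the I74 null line on C57BL/6 x 129SV) were compared with wild-type mice (WT). Ikaros is the DNA-binding protein made from Ikzf1, and it regulates genes throughout blood cell development. Mice of both genotypes carried B-p-GFP-C, a GFP reporter transgene built on Ikaros regulatory sequence and kept on C57BL/6 x C3H, so no group is free of it. Strain background and genotype cannot be told apart, because the labels give the null line and the reporter line different backgrounds. In each genotype, cells were sorted as LK (lineage-negative, Kit-positive) or as LSK (also Sca-1-positive) and by GFP level. The labels name LK GFPhi cells as GMP (granulocyte and monocyte progenitors) and LK GFPneg cells as MEP (megakaryocyte and erythroid progenitors). LSK GFPhi cells are named LMPP (lymphoid-primed multipotent progenitors), and LSK GFPneg-lo cells are named HSC (stem cells). The labels give no age and do not say how many animals went into an array, so p-values measure the spread between arrays, and 3 arrays per group limit the precision.

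Eosinophils are granulocytes that arise in the bone marrow and act in helminth infection and allergy. Their granules hold strongly basic, toxic proteins, which are made early, while the cell is still an immature precursor. Interleukin 5 drives their growth and survival through a receptor made of a specific alpha chain and a beta chain shared with the receptors for interleukin 3 and GM-CSF. In mice the factor GATA1 is needed for the eosinophil lineage, and it works there with GATA2 and members of the C/EBP family. GMP-stage cells are the usual source of this lineage, and the same stage gives rise to neutrophils, monocytes, basophils and mast cells.

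Prg2, Prg3 and Epx encode granule proteins. Prg2 (probe set 1422873_at) encodes major basic protein, the core protein of the eosinophil granule, and Prg3 (1449924_at) encodes its homologue, major basic protein 2. Both lie on chromosome 2 in GRCm38.p6, Prg2 at chr2:84980461-84983632 and Prg3 at chr2:84988196-84996559, with 4564 bases between them. Epx (1449136_at, chr11:87863997-87875536) encodes eosinophil peroxidase. It lies near the related peroxidase genes Lpo and Mpo, 37883 and 59585 bases away, and on the same chromosome as Ikzf1 but 76.1 Mb from it. The other 2 members encode surface receptors. Siglecf (1424975_at, chr7:43351341-43359475) encodes a sialic acid-binding receptor that marks mouse eosinophils and also alveolar macrophages. Il5ra (1421620_at, chr6:106710375-106749037) encodes the alpha chain of the interleukin 5 receptor. All 5 are protein-coding genes.

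The promoters of 3 members whose RNA was high in KO LK GFPhi cells are shown because each was called higher there than in WT. They run from 250 bases before to 50 bases after the gene start (RefSeq, GRCm38.p6), and 4 of the 5 members matched this table, all but Prg2. Prg3 is at chr2:84987965-84988264 on the plus strand, Siglecf at chr7:43351091-43351390 on the plus strand and Epx at chr11:87875487-87875786 on the minus strand. Capitals mark matches to the GATA motif, searched on both strands as AGATAA, with T also allowed as the first base and G as the last.
Prg3: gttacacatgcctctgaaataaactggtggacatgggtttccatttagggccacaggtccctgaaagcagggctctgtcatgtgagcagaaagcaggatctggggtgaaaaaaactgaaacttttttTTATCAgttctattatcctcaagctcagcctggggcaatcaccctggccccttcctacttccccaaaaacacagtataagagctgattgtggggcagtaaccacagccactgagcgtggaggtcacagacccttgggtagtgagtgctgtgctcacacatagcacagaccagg
Siglecf: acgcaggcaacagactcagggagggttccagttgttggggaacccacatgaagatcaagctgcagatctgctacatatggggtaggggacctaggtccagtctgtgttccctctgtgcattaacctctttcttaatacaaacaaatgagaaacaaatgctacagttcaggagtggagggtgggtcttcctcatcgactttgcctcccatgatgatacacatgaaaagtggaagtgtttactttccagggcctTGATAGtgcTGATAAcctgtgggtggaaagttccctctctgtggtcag
Epx: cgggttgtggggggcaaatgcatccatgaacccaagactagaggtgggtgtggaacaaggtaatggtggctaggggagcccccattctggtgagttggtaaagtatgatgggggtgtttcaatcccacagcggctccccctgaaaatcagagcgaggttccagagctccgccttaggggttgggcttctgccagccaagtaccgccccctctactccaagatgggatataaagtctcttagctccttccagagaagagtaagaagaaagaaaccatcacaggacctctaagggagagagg
The Prg3 window held 1 match, on the minus strand at bases -123 to -118 counted from the gene start. Siglecf held 2 matches, at bases 3 to 8 and 12 to 17, and Epx held 0. The Il5ra window, not shown, held 1 match at bases -74 to -69. Of 32851 promoters of the same length, 29.8% held at least 1 such match and 7.77% held 2 or more. The Ikaros core TGGGAA, searched on both strands, was in 0 of the 4 windows and in 25.6% of all promoters. These are matches of letters only, and binding was not measured here.

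The granule protein genes were high in 1 of the 8 groups, KO LK GFPhi. Prg2 read 8.27, 10.2 and 12.0 on the 3 KO LK GFPhi arrays, against 5.65, 5.07 and 5.85 on the 3 WT LK GFPhi arrays (log2 RMA signal). Epx read 6.81, 8.85 and 11.7 on the KO LK GFPhi arrays, against 5.20, 5.31 and 5.56 in WT. Prg3 read 6.85, 8.03 and 9.87 in KO LK GFPhi, against 6.47, 6.27 and 6.31 in WT. For each of these genes all 3 KO arrays lay above all 3 WT arrays, as for 17.1% of all genes. They also lay above all 21 arrays of the other 7 groups, a trait not counted over all genes. The highest of those 21 was 7.25 for Prg2, 5.81 for Epx and 6.57 for Prg3. On KO replicate 1 the margin of Prg3 over that highest value was small, while replicate 3 stood well clear of it for all 3 genes.

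The surface receptor genes differed from each other. Siglecf read 7.34, 8.48 and 9.21 in KO LK GFPhi, against 6.49, 5.70 and 6.56 in WT LK GFPhi. Its 3 KO arrays again lay above the other 21, whose highest value was 7.03. Il5ra read 5.38, 5.15 and 5.70 in KO LK GFPhi, against 5.15, 5.17 and 5.05 in WT LK GFPhi. The KO and WT arrays of Il5ra overlapped, since KO replicate 2 read below 2 of the 3 WT arrays. Over all 24 arrays Il5ra stayed between 4.91 and 5.70, and 2 of the 3 KO LK GFPhi arrays held its highest values. The deposited table gives no detection call, so it is not known which of the low readings of any member are above background.

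**Figure D1:**
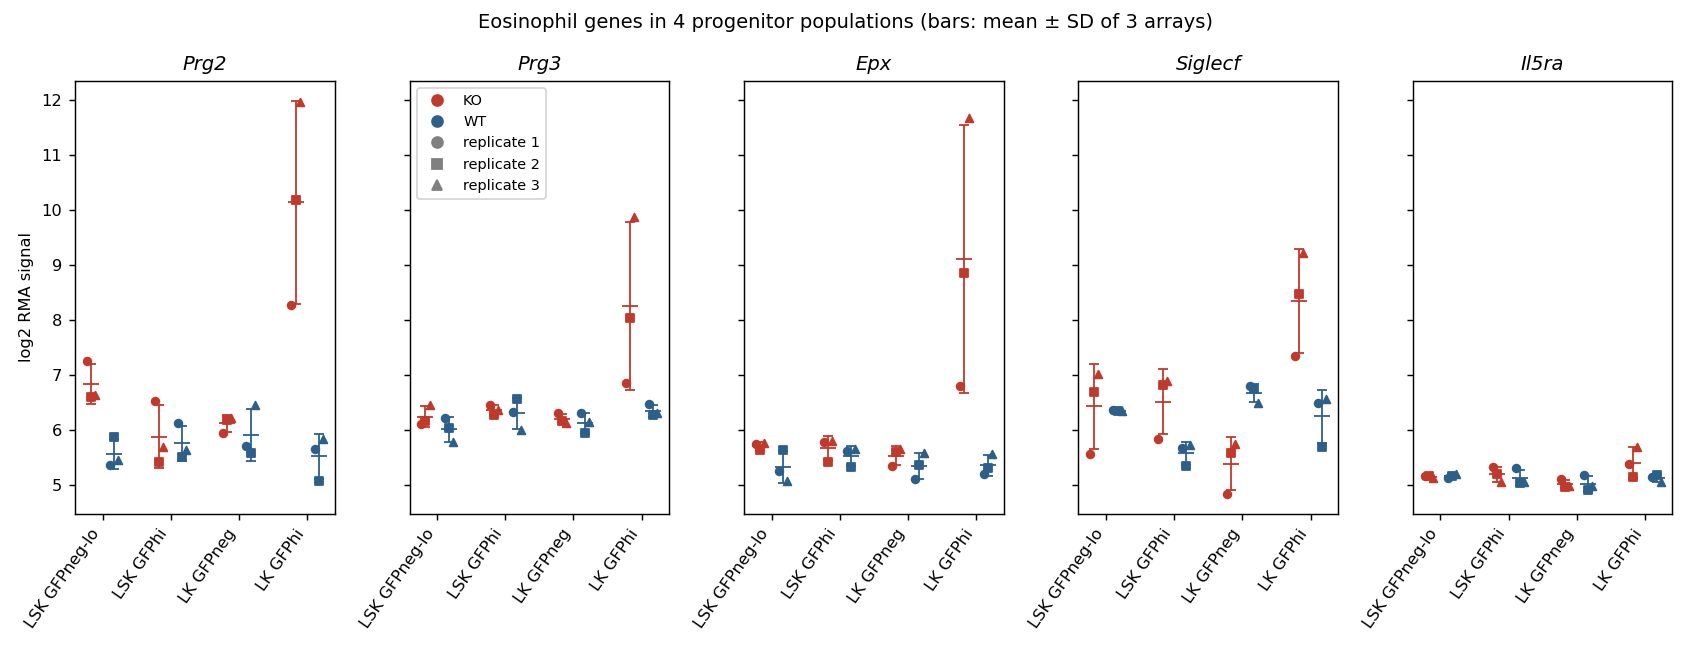
Log2 RMA signal (vertical axis) of the 5 genes in the 4 sorted populations (horizontal axis), KO in red to the left of WT in blue; each symbol is 1 array (shape gives the replicate number), and bars show the mean ± SD of 3 arrays. For Prg2, Prg3, Epx and Siglecf the 3 KO LK GFPhi arrays lie above all 21 other arrays, and for Il5ra 2 of 3 do.

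Ordered by group mean, Prg2 was highest in KO LK GFPhi (10.14 ± 1.84, SD, n = 3) and next in KO LSK GFPneg-lo (6.83 ± 0.36), with no overlap between these groups. The arrays of KO LSK GFPneg-lo also lay above those of the third group, KO LK GFPneg (6.12 ± 0.15). From there down to WT LK GFPhi (5.52 ± 0.40), the lowest, each group's arrays overlapped those of the next. Epx was highest in KO LK GFPhi (9.11 ± 2.44), and its other group means ran from 5.32 to 5.71 with every neighbour in the order overlapping. Prg3 was highest in the same group (8.25 ± 1.52), and its other means ran from 6.01 to 6.36, again with all neighbours overlapping. Siglecf was highest there too (8.34 ± 0.94), followed without overlap by WT LK GFPneg (6.67 ± 0.16), and lowest in KO LK GFPneg (5.39 ± 0.49). Between those 2 groups its neighbours in the order overlapped. Il5ra had the same leading group (5.41 ± 0.28), but all of its neighbouring groups overlapped down to KO LK GFPneg (5.02 ± 0.07).

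In LK GFPhi cells 4 of the 5 members rose in KO against WT. The test was limma over all 18193 genes and 24 arrays, and a call means a Benjamini-Hochberg adjusted p below 0.05. Prg2 rose by 4.61 ± 0.56 log2 units (SE, adjusted p = 1.6e-05), or 24.5-fold, with a 95% interval of 3.45 to 5.78. Epx rose by 3.75 ± 0.66 (adjusted p = 0.000869), or 13.5-fold. These were the largest differences of the 5. Siglecf rose by 2.10 ± 0.41 (adjusted p = 0.00215) and Prg3 by 1.90 ± 0.42 (adjusted p = 0.0063), or 4.27-fold and 3.73-fold. Il5ra was 0.28 ± 0.12 higher and did not pass (adjusted p = 0.133, interval 0.04 to 0.52). Of all genes, 5.78% were called higher in KO and 9.56% were called in either direction, and 17.1% had all 3 KO arrays above all 3 WT arrays. The median difference was 2.10 over the 5 members, chosen with earlier results of these data known, and 0.07 over all genes. In bulk RNA, more cells of a type and more RNA per cell cannot be told apart.

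These p-values use a spread pooled over 8 groups, while the KO LK GFPhi arrays had an SD of 1.84 for Prg2, 1.52 for Prg3 and 2.44 for Epx. In the other groups the highest SD was 0.57 for Prg2, 0.28 for Prg3 and 0.29 for Epx. For Siglecf the gap was smaller, with an SD of 0.94 in KO LK GFPhi and up to 0.77 in the other groups. In a fit of the 6 LK GFPhi arrays alone, Prg2 was still called (adjusted p = 0.0392), while Siglecf (0.0758), Epx (0.136) and Prg3 (0.208) were not. An exact permutation test of 3 against 3 arrays cannot go below p = 0.1. Without KO LK GFPhi replicate 3 all 4 genes were still called over the 24-array fit, but with smaller differences, 3.70 for Prg2, 2.47 for Epx, 1.66 for Siglecf and 1.09 for Prg3. Without KO replicate 1 the differences were 5.55 for Prg2, 4.90 for Epx, and 2.60 for both Siglecf and Prg3. Il5ra was called only without KO replicate 2 (0.41, adjusted p = 0.0313).

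**Figure D2:**
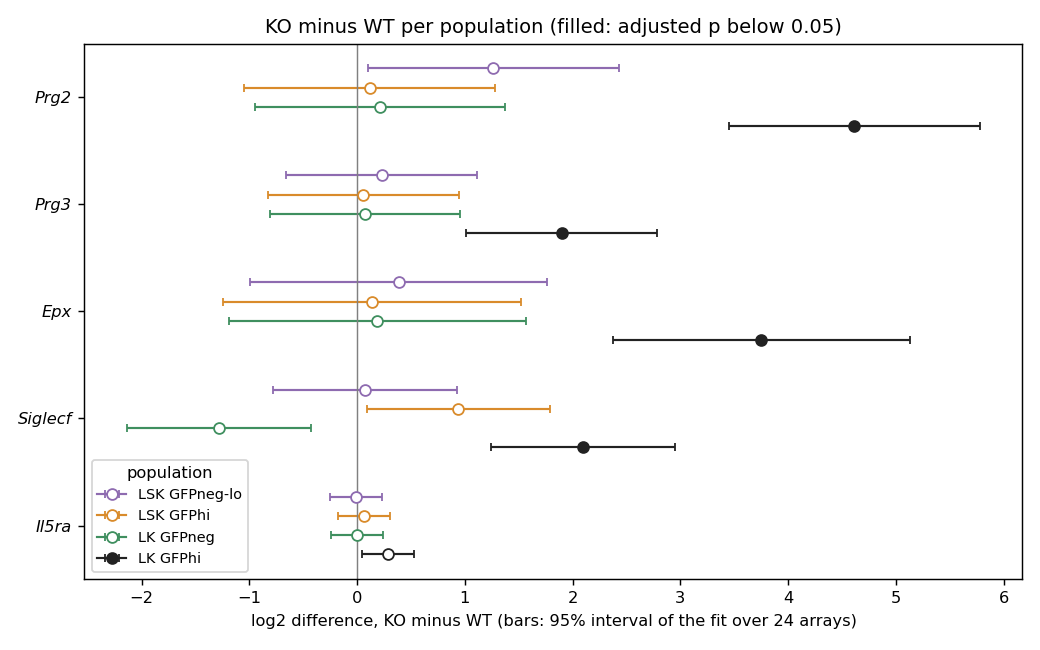
Log2 difference, KO minus WT (horizontal axis), of each gene (rows) in the 4 populations (colours), with the 95% interval of the fit over 24 arrays; filled points have an adjusted p below 0.05. The filled points are Prg2, Prg3, Epx and Siglecf in LK GFPhi, at 4.61, 1.90, 3.75 and 2.10.

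The 3 KO LK GFPhi arrays did not carry the genes at one level. Epx was 4.86 log2 units higher on replicate 3 than on replicate 1, Prg2 3.68, Prg3 3.02 and Siglecf 1.87, and replicate 2 lay between them for all 4. On the WT side, the highest and lowest arrays differed by 0.36 for Epx, 0.77 for Prg2, 0.20 for Prg3 and 0.86 for Siglecf. Set against the WT mean, Prg2 was 6.73-fold, 25.2-fold and 86.5-fold higher on KO replicates 1, 2 and 3. Epx was 2.73-fold, 11.3-fold and 79.2-fold higher on the same arrays. Prg3 was 1.42-fold, 3.19-fold and 11.5-fold higher. The WT readings under these folds may be background, so they are ratios of RMA signal and not measured ratios of RNA. So the 3 granule genes and Siglecf were lowest on the same KO array and highest on the same KO array. The same order, lowest on KO replicate 1 and highest on replicate 3, was seen in 23.8% of all 18193 genes and in 39.7% of the 1051 genes called higher in KO LK GFPhi. Wherever replicate 2 lay, replicate 3 read at least 1 log2 unit above replicate 1 in 1.94% of all genes and 6.85% of those called higher. Arrays of 1 group correlated at r = 0.979 to 0.996 over all genes.

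Ikzf1 itself separated the genotypes on these arrays. It averaged 7.24 ± 0.67 in KO LK GFPhi and 11.58 ± 0.13 in WT LK GFPhi (SD, n = 3). Across the KO LK GFPhi arrays it read 7.83, 6.51 and 7.36, which is not the order of the eosinophil genes. The Y-linked gene Eif2s3y read 4.01, 7.58 and 7.74 on the same arrays, and 7.95 to 10.2 on the WT LK GFPhi arrays. Eif2s3y was therefore low on the KO array where the 4 genes were lowest, and its part in the result was not tested. On the KO arrays numbered 3 of the other populations Eif2s3y read 4.01 to 4.14, so KO LK GFPhi replicate 3, at 7.74, stood apart from them. The shared number therefore cannot be taken to mean that these arrays came from the same mice.

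**Figure D3:**
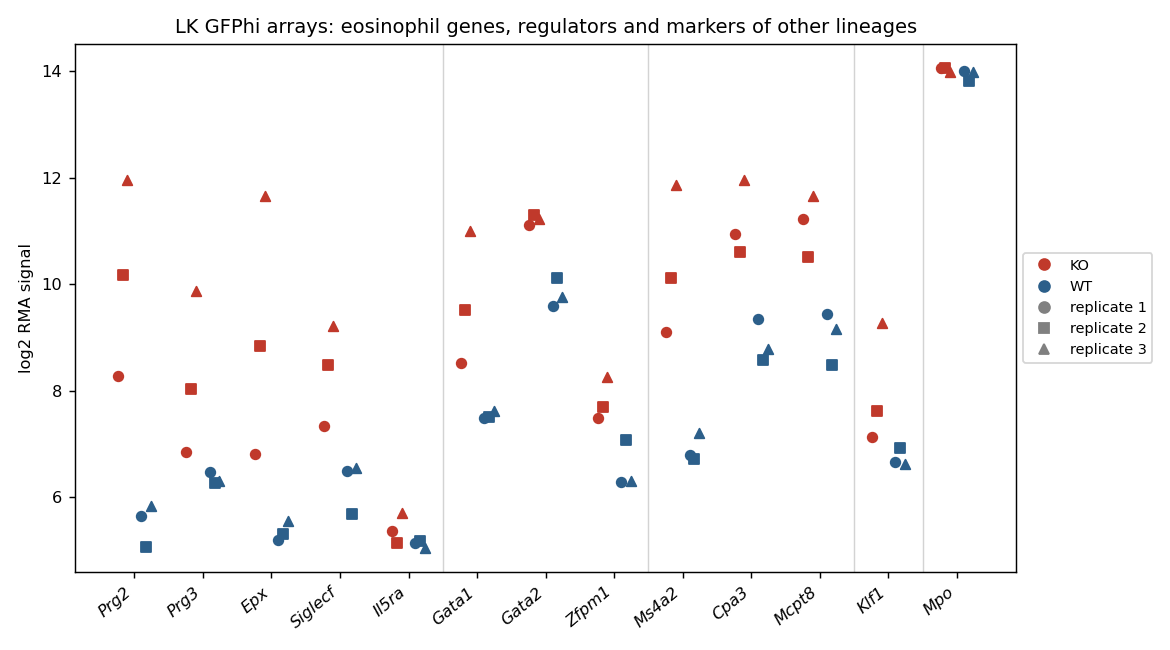
Log2 RMA signal (vertical axis) on the 3 KO (red, left) and 3 WT (blue, right) LK GFPhi arrays for the 5 genes, 3 regulators, 3 mast cell and basophil genes, Klf1 and Mpo (horizontal axis); shapes give the replicate number and grey lines part the gene groups. Of the KO arrays, Prg2, Prg3, Epx, Siglecf, Gata1, Zfpm1, Ms4a2 and Klf1 are lowest on replicate 1 and highest on replicate 3, while Mpo lies near 14.0 on all 6 arrays.

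In the other 3 populations none of the 5 genes was called between KO and WT by limma. In LSK GFPneg-lo cells Prg2 read 7.25, 6.60 and 6.64 in KO, against 5.37, 5.88 and 5.46 in WT. All 3 KO arrays lay above all 3 WT arrays, as did those of 10.5% of genes, and the difference was 1.26 ± 0.56 (adjusted p = 0.427). In a fit of these 6 arrays alone it was called (adjusted p = 0.0482). The 4 other members differed by -0.01 to 0.39 in that population, and 2.14% of all genes were called there in either direction.

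Siglecf gave the largest differences of the 5 in the remaining populations, one in each direction. In LSK GFPhi cells it read 5.84, 6.82 and 6.89 in KO, against 5.67, 5.34 and 5.72 in WT. The groups did not overlap, as for 9.67% of genes in this direction, and the difference was 0.94 ± 0.41 (adjusted p = 0.323, with 4.6% of genes called either way). In LK GFPneg cells it read 4.84, 5.59 and 5.75 in KO, against 6.79, 6.74 and 6.49 in WT. Here all KO arrays lay below all WT arrays, as for 5.61% of genes, with a difference of -1.28 ± 0.41 (adjusted p = 0.131). With replicate number as a block, which pairs the samples in this population, the fall was called (-1.28, adjusted p = 0.0329). The share of all genes called there in either direction was 2.65% without the block and 4.88% with it. In each of the 4 KO groups the lowest Siglecf value was on replicate 1. Prg2, Prg3, Epx and Il5ra differed by 0.06 to 0.14 in LSK GFPhi and by -0.00475 (Il5ra) to 0.21 (Prg2) in LK GFPneg. The unadjusted p was below 0.05 for 1 member in each of these 3 populations, Prg2 in LSK GFPneg-lo and Siglecf in the others.

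The genes were then compared between sorted populations within a genotype. In KO cells all 5 were higher in LK GFPhi than in LK GFPneg, where 12.8% of all genes were called higher. The differences were 4.01 for Prg2, 3.57 for Epx, 2.95 for Siglecf, 2.05 for Prg3 and 0.39 for Il5ra (adjusted p = 1.39e-05, 0.000349, 1.29e-05, 0.00104 and 0.0181 in limma's fit). The call of Il5ra was lost without KO LK GFPhi replicate 3 (0.24, adjusted p = 0.136) and without KO LK GFPneg replicate 3 (0.37, adjusted p = 0.0634). It was also lost with array weights (0.22, adjusted p = 0.124), with median centring (0.34, 0.0537) and with the block in the 6 arrays alone (0.126). In the same comparison in WT cells 0 of 5 were called, and 0 had an unadjusted p below 0.05, with differences from -0.43 for Siglecf to 0.22 for Prg3. There 18.6% of all genes were called in either direction. In a fit of the 6 KO arrays alone 2 of the 5 were called, Prg2 and Siglecf, where 2614 of 18193 genes were called in either direction.

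Between the GFP-high populations of KO mice, 4 of the 5 genes were higher in LK GFPhi than in LSK GFPhi. The differences were 4.26 for Prg2 (adjusted p = 0.000447), 3.44 for Epx (0.0116), 1.89 for Prg3 (0.0321) and 1.83 for Siglecf (0.0321). Il5ra differed by 0.21 (adjusted p = 0.552). Of all genes, 0.467% were called higher in this comparison and 1.18% in either direction. Only Prg2 was still called when KO LSK GFPhi replicate 2 or 3 was left out, and Prg2 and Epx when KO LSK GFPhi replicate 1 or KO LK GFPhi replicate 2 was. In these fits the adjusted p was 0.0572 to 0.126 for Prg3, 0.0637 to 0.15 for Siglecf and 0.0512 to 0.0594 for Epx where it was lost. Siglecf also lost its call without KO LK GFPhi replicate 3 (1.39, adjusted p = 0.137). In a fit of the 6 arrays alone 0 of the 5 were called, where 43 of 18193 genes were called in either direction. Without KO LK GFPhi replicate 3, Prg3 differed by 1.08 and Epx by 2.16. In WT cells 0 of the 5 were called and 0 had an unadjusted p below 0.05, with differences from -0.24 for Prg2 to 0.67 for Siglecf, and 4.55% of all genes were called in either direction.

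Whether the KO difference was larger in LK GFPhi than in another population was tested as an interaction. Against LK GFPneg the KO difference was larger by 4.40 ± 0.79 for Prg2 (adjusted p = 0.00258), 3.56 ± 0.93 for Epx (0.0466) and 3.38 ± 0.58 for Siglecf (0.00159). Prg3 (1.83, adjusted p = 0.147) and Il5ra (0.29, 0.629) did not pass, and 1.7% of all genes were called with a larger difference in LK GFPhi. Against LSK GFPhi only Prg2 passed (4.50 ± 0.79, adjusted p = 0.0235), where 0.066% of genes were called in this direction. The difference for Siglecf there was 1.16 ± 0.58 (adjusted p = 0.632), and those for Prg3 and Epx were 1.84 and 3.61 (adjusted p = 0.383 and 0.205). Against LSK GFPneg-lo again only Prg2 passed (3.35 ± 0.79, adjusted p = 0.0444), where 0.649% of genes were called in this direction. Prg3, Epx and Siglecf were larger there by 1.67, 3.36 and 2.02 (adjusted p = 0.261, 0.102 and 0.117) and did not pass.

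The genes whose profiles lay closest to each called member over the 24 arrays were found from the mean absolute difference of log2 values after centring each gene on its own mean. The closest gene to Prg2 was Epx, at 0.368, followed by Prg3 (0.673), Ms4a2 (0.678), Lrg1 (0.703) and Naaa (0.738), against a median of 1.03 over all genes. The closest genes to Epx were Prg2 (0.368), Prg3 (0.393), Lrg1 (0.449), Ces2b (0.565) and Fcor (0.566), with a median of 0.792. So the 3 granule genes lay near each other from the side of Prg2 and of Epx. This closeness takes in their shared high values on the KO LK GFPhi arrays, so it is not separate support for the rise there. Prg3 has a narrower range, and nearest to it were Gpr35 (0.253), Aif1 (0.305), Id1 (0.307), P2rx5 (0.312) and Tst (0.317), with a median of 0.479. Siglecf lay closest to Cpa3 (0.451), a mast cell carboxypeptidase, then Neu1 (0.459), Sqor (0.470), Daglb (0.487) and Slc24a3 (0.506), with a median of 0.714. None of the other members was among the 5 closest to Siglecf.

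**Figure D4:**
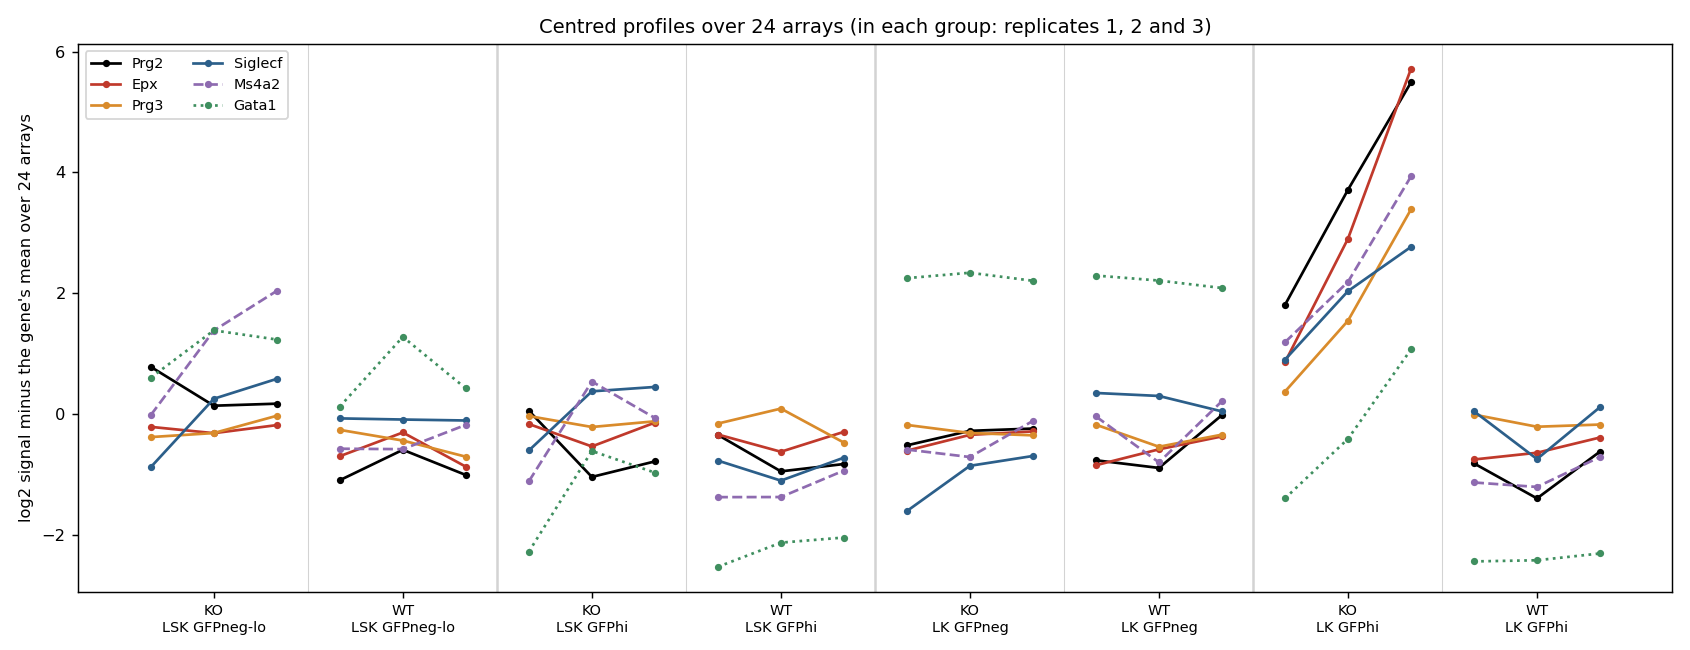
Log2 signal minus each gene's own mean over 24 arrays (vertical axis) for Prg2, Epx, Prg3, Siglecf, Ms4a2 and Gata1, by group with replicates 1, 2 and 3 from left to right in each and KO left of WT (horizontal axis); lines only join the points of a gene. The 4 eosinophil genes and Ms4a2 are highest in KO LK GFPhi, whereas Gata1 is highest in both LK GFPneg groups.

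Ms4a2 and Lrg1, both high in KO LK GFPhi, differed from the members in other respects. Ms4a2, the beta chain of the high-affinity IgE receptor of mast cells and basophils, read 9.11, 10.1 and 11.9 in KO LK GFPhi, against 6.79, 6.72 and 7.21 in WT. It had the same order over the KO arrays as the eosinophil genes. In LSK GFPneg-lo, where all 3 KO arrays of Prg2 also lay above WT and the Prg3 and Epx means were 6.24 and 5.71 in KO, Ms4a2 read 7.91, 9.31 and 9.96 in KO, against 7.35, 7.34 and 7.75 in WT. Lrg1, which encodes a secreted leucine-rich glycoprotein, read 6.74, 7.47 and 6.93 in KO LK GFPhi, against 4.93, 4.60 and 4.82 in WT. Lrg1 read highest on KO replicate 2, so its order over the KO arrays was not that of the members.

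Genes beside the members on the chromosomes were read as well, 3 on each side, a choice made after values were seen. Beside the Prg2 and Prg3 pair, Slc43a3 differed by -0.49, P2rx3 by 0.16 and Tnks1bp1 by 0.51 between KO and WT LK GFPhi, and none of the 6 other neighbours was called. Beside Epx, Mpo differed by 0.09 and Lpo by 0.11, and Mks1 by -0.31 (adjusted p = 0.0651), and 0 of the 6 neighbours were called. Thus the peroxidase genes near Epx did not pass the test. Mpo lay near the highest deposited value, 14.5, and whether a rise would show there was not tested. Of the Siglecf neighbours Nkg7 was called (0.72 ± 0.20, adjusted p = 0.0233), whereas Siglecg, of the same receptor family, differed by 0.20 and was not. None of the 6 neighbours of Il5ra was called.

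Of 11 symbols listed for other eosinophil granule proteins and effector functions, 5 were measured. In KO LK GFPhi 1 of the 5 was called higher and 0 lower, where 5.78% of all genes were called higher, and their median difference was 0.23. The called one was Ltc4s, leukotriene C4 synthase, which rose by 0.55 ± 0.13 (adjusted p = 0.0101). Its call was lost without KO replicate 3 (0.48, adjusted p = 0.0583) and without WT replicate 3 (0.49, 0.0583). The eosinophil-associated ribonucleases Rnase2a and Rnase2b differed by 0.23 and 0.14, Alox5 by 0.65 (adjusted p = 0.0511) and Alox15 by 0.09, none of them called. With the replicate block 2 of the 5 were called, where the block called 22.2% of all genes in either direction and 13.2% higher. Ear1, Ear2, Ear6, Ear10 and Ear14 were not analysed here, and Ear11 is an older symbol of Rnase2a.

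Receptors and signalling genes of eosinophil precursors were called in both directions. Of 13 measured, 2 rose and 2 fell in KO LK GFPhi, where 9.56% of all genes were called either way. Their median difference was 0.07, the same as over all genes. Csf2ra, the GM-CSF receptor alpha chain, rose by 0.93 ± 0.17 (adjusted p = 0.00151), and Csf2rb2, the interleukin 3 specific beta chain of mice, rose by 1.15 ± 0.30 (adjusted p = 0.0182). Csf2rb, the shared beta chain that partners the Il5ra product, differed by 0.54 (adjusted p = 0.195) and Il3ra by 0.28 (adjusted p = 0.457). Ccr3, the eotaxin receptor of mature eosinophils, stayed between 5.06 and 5.50 over all 24 arrays and differed by -0.11 (adjusted p = 0.496). Stat5b, a mediator of interleukin 5 signals, fell by 0.58 (adjusted p = 0.00437), but the mean of its probe sets did not pass (-0.24, adjusted p = 0.0835). Itga4, an integrin chain used in homing, fell by 0.84 (adjusted p = 0.0128). It lost its call without KO replicate 2 (-0.71, adjusted p = 0.0666) or replicate 3 (-0.76, 0.0644), and Csf2rb2 without KO replicate 3 (0.78, 0.127) or WT replicate 1 (1.03, 0.0835). In the mean of the probe sets of Itga4 the difference was -0.21 (adjusted p = 0.17).

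Among transcription factors of the lineage, 3 of 11 measured rose and 1 fell, where 9.56% of all genes were called either way. Their median difference was 0.63. Cebpe, a C/EBP family gene, was also listed but was not among the genes measured. Gata1 read 8.53, 9.51 and 11.0 in KO LK GFPhi, against 7.49, 7.50 and 7.62 in WT. Its KO arrays all lay above WT, as for 17.1% of all genes, and in the order of the eosinophil genes. It rose by 2.14 ± 0.45 (adjusted p = 0.00424, or 0.107 in a fit of the 6 arrays alone). Gata1 did not share the pattern of the members across populations. It averaged 12.19 in KO LK GFPneg and 12.12 in WT LK GFPneg, above KO LK GFPhi, while Prg2, Prg3 and Epx were at their low levels in LK GFPneg. Gata2 rose by 1.39 ± 0.18 (adjusted p = 3.27e-05), and Zfpm1, the GATA1 cofactor FOG-1, rose by 1.25 ± 0.28 (adjusted p = 0.00648, or 0.0724 in the 6 arrays alone). Irf8, which favours monocytes, fell by 1.32 ± 0.31 (adjusted p = 0.00897). Cebpa differed by 0.54 (adjusted p = 0.056) and Spi1 by 0.63 (adjusted p = 0.11), and neither was called. With the replicate block 7 of the 11 rose and 1 fell, where 13.2% of all genes rose, and both Cebpa (adjusted p = 0.034) and Spi1 (0.0203) were called.

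**Figure D5:**
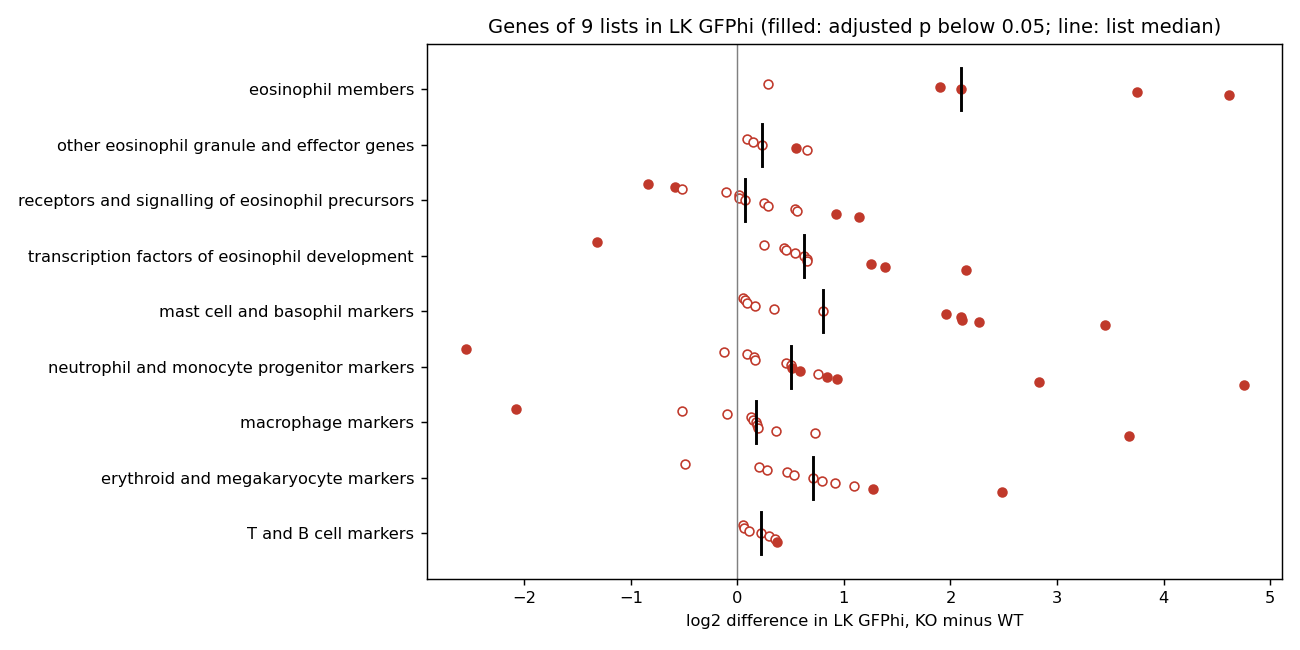
Log2 difference in LK GFPhi, KO minus WT (horizontal axis), of each gene (points) in 9 lists (rows); filled points have an adjusted p below 0.05 and the black line is the list median. The median of the eosinophil members is 2.10, and those of the other lists lie between 0.07 and 0.80.

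Markers of other cell types that this sort could hold moved in the same arrays. Of 11 mast cell and basophil markers, 5 were called higher in KO LK GFPhi and 0 lower, where 5.78% of all genes were called higher. Their median difference was 0.80. Those called were Ms4a2 (3.45 ± 0.55, adjusted p = 0.000307), Cpa3 (2.27), Hdc (2.11), the basophil protease Mcpt8 (2.10) and Fcer1a (1.96). The mean of the 11 markers was 7.94 to 8.64 over KO LK GFPhi arrays and 6.76 to 7.13 over WT LK GFPhi arrays, while the mean of the 5 eosinophil genes was 6.93 to 9.68 in KO and 5.50 to 5.86 in WT. Apart from Cpa3, a mast cell carboxypeptidase, the mast cell proteases of the list were not called. Of these, Cma1 differed by 0.80 (adjusted p = 0.091), with 1.87 on KO replicate 3, Tpsab1 by 0.35 (0.0892), and Mcpt4, Tpsb2 and Mcpt1 by 0.16, 0.09 and 0.05. Without KO replicate 3 the median of the list was 0.27 with 5 still called, and Hdc lost its call without WT replicate 2 (1.69, adjusted p = 0.0504). The part of these markers in the eosinophil gene result was not tested.

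Of 11 erythroid and megakaryocyte markers 2 rose and 0 fell, where 5.78% of all genes were called higher. Their median difference was 0.71. Itga2b rose by 2.49 ± 0.24 (adjusted p = 1.19e-06) and Klf1, an erythroid factor, by 1.27 ± 0.36 (adjusted p = 0.0311). Klf1 read 7.14, 7.62 and 9.28 over KO LK GFPhi arrays, against 6.66, 6.93 and 6.63 in WT. Its call was lost without KO replicate 3 (0.64, adjusted p = 0.162), WT replicate 1 (1.23, 0.0938) or WT replicate 3 (1.22, 0.0996). The mean of the list was 8.07 to 8.98 in KO LK GFPhi and 7.37 to 7.88 in WT, and without KO replicate 3 its median was 0.34. With the replicate block 4 of these 11 rose and 1 fell, where 22.2% of all genes were called in either direction. Their part in the result was not tested.

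Neutrophil and monocyte progenitor markers gave 6 risen and 1 fallen of 14, where 9.56% of all genes were called either way. Their median was 0.51. Lcn2 rose by 4.75 and S100a8 by 2.83, and Ly86 fell by 2.55. Mpo, the myeloperoxidase gene that is high in GMP-stage cells, read between 14.0 and 14.1 on the KO LK GFPhi arrays and between 13.8 and 14.0 on the WT ones. Neither it (adjusted p = 0.883) nor Elane (0.76, adjusted p = 0.26) nor Csf1r (-0.12, 0.791) was called. Of 11 macrophage markers, relevant because Siglecf also marks macrophages, 1 rose and 1 fell, against the same 9.56% of all genes. Their median was 0.18. Mrc1 rose by 3.68 and Cd163 fell by 2.08, while C1qa, C1qb and C1qc differed by 0.15, 0.13 and 0.19 and were not called. With the replicate block 3 of the 11 macrophage markers rose and 1 fell, where 22.2% of all genes were called in either direction. Of 7 T and B cell markers 1 was called, Cd8a (0.37), where 5.78% of all genes were called higher. The list median was 0.22. The call of Cd8a was lost in the mean of its probe sets (0.18, adjusted p = 0.105), with the less specific probe sets left out (0.27, 0.147) and in the 6 arrays alone (0.132). The list means in KO and WT LK GFPhi were 9.73 to 10.03 and 8.95 to 9.32 for neutrophil and monocyte markers. They were 6.57 to 7.04 and 6.42 to 6.49 for macrophage markers, and 6.79 to 7.07 and 6.63 to 6.79 for T and B cell markers. Their part in the result was not tested.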

How the data were processed

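RNA was hybridised to 24 one-colour Affymetrix arrays. The authors used RMA, per the submitters' processing notes, so each deposited value is a log2 summary of 1 probe set (3.33 to 14.5). RMA's version was not found in the labels. The table gives no intensities or detection calls. Of 45101 probe sets, 64 controls, 932 with several symbols and 9160 with none were left out. The highest-mean probe set was kept per gene (18193 genes), and each member has a single one. Coordinates and promoters are from RefSeq (GRCm38.p6).

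One limma fit (3.58.1, R 4.3.3) of the 8 groups used all 24 arrays (16 residual degrees of freedom, 3.27 prior). The p-values are two-sided and Benjamini-Hochberg adjusted over all genes within a comparison, and 11 comparisons were made. The fit was tested on simulated data. Replicate numbers in the titles were taken to pair arrays where every same-numbered pair's residuals correlated above 0.1. This held in LK GFPhi (lowest r = 0.175), LK GFPneg (0.359) and LSK GFPneg-lo (0.276), in the 4 within-genotype comparisons (0.169 to 0.582) and in the LK GFPneg interaction (0.169). KO LK GFPhi replicate 3 differs in Eif2s3y from the other KO arrays numbered 3, so there the pairing by number is in doubt. The correlation did not hold in LSK GFPhi (0.0238) or the other 2 interactions (0.0238 and -0.0415). In the 24-array fit the block was nonetheless shared by all 8 groups.

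The members and lists were chosen with earlier results of these data known. Named genes were the members, up to 5 called genes per list with the smallest adjusted p, a fixed panel, and the 5 closest profiles per called member. Further list genes and neighbours were named after their values were seen.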

Additional observations from a re-analysis of the deposited data

Results flagged for a closer look

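The KO difference of 3 eosinophil genes differed between LK GFPhi and another population in limma's interaction test over 18193 genes. For Prg2 it was larger in LK GFPhi than in LK GFPneg by 4.40 (adjusted p = 0.00258), than in LSK GFPhi by 4.50 (adjusted p = 0.0235) and than in LSK GFPneg-lo by 3.35 (adjusted p = 0.0444). For Epx it was larger than in LK GFPneg by 3.56 (adjusted p = 0.0466), and for Siglecf by 3.38 (adjusted p = 0.00159).

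The Prg2 and Siglecf interactions with LK GFPneg were called under all 22 alternatives tried. The Epx interaction lost its call under 15 of 22 (adjusted p up to 0.28). The call of Prg2 against LSK GFPneg-lo was lost under 14 of 22 (up to 0.226), and against LSK GFPhi under 8 of 22 (up to 0.314). Each of these 3 calls was lost with some single arrays left out. For Prg2 against LSK GFPhi these arrays were WT LSK GFPhi replicate 1 (adjusted p = 0.0671), WT LK GFPhi replicate 1 (0.0638) or 3 (0.0665), KO LSK GFPhi replicate 2 (0.0743) or 3 (0.0637) and KO LK GFPhi replicate 2 (0.0541). Epx against LK GFPneg was called with KO LK GFPhi replicate 1 or 3 left out, and with any other array left out its adjusted p was 0.0656 to 0.107. Prg2 against LSK GFPneg-lo was likewise called with KO LK GFPhi replicate 1 or 3 left out, and with any other array left out its adjusted p was 0.0534 to 0.118.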

How the results depend on the processing

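Tried in place of the settings above were the compared arrays alone, the replicate block, other choices of probe set, another eBayes (trend, robust), weights per array, median or quantile scaling and the loss of each array. The block within the compared arrays alone was added after seeing the data. The members called in LK GFPhi, 4 over 24 arrays, were 1 in the 6 arrays alone, 2 with the block in those arrays, and 4 to 5 with an array left out. Of all 18193 genes, 1740 were called over 24 arrays and 491 in the 6 arrays alone. The block in those arrays called 1020, and fits with an array left out called 1060 to 2087. No called difference of the members changed sign. In LK GFPneg, with 0 called, there was 1, Siglecf, with the block, with array weights and with the block in the 6 arrays alone. In that order these settings called 888, 1210 and 700 of all genes, against 483. In LSK GFPneg-lo, with 0 called, there was 1, Prg2, in the 6 arrays alone with or without the block. Those 6 arrays called 199 of all genes without the block and 962 with it, against 389. Between KO LK GFPhi and KO LK GFPneg, 2 were called in the 6 arrays alone, against 5. Of all genes, 2614 were called in those arrays, against 4256. Between KO LK GFPhi and KO LSK GFPhi, the 4 calls were 0 in the 6 arrays alone, 1 with the block there, and 1 to 4 with an array left out. Over all genes these counts were 43, 156 and 68 to 222, against 215. The same comparison in WT gave 1 call with the block in the 6 arrays alone, against 0. Of all genes that fit called 3148, against 827. The single interaction call with LSK GFPhi became 2 with array weights, 0 in the compared groups alone with or without the block, and 0 to 3 with an array left out. Over all genes the 26 calls became 91 with array weights, and 6 to 53 with an array left out. The single call with LSK GFPneg-lo became 3 with the block, 2 with array weights, 0 with all probe sets, with median centring and in the compared groups alone with or without the block, and 0 to 4 with an array left out. Over all genes the 187 calls became 860 with the block, 685 with array weights and 152 with median centring. They were 57 in the compared groups alone, 640 with the block there, and 103 to 270 with an array left out. The block changed no other count of members by over 1.5 times. The cause of a lost call was not tested.

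Uncalled differences near 0 changed sign. With array weights, Prg2 and Il5ra in LSK GFPhi were -0.17 and -3.7e-05, and Il5ra in LK GFPneg was 0.056. With an array left out, the ranges in LSK GFPhi were -0.21 to 0.34 for Prg2, -0.089 to 0.19 for Prg3 and -0.00198 to 0.15 for Il5ra. In LK GFPneg they were -0.023 to 0.16 for Prg3 and -0.062 to 0.077 for Il5ra, and in LSK GFPneg-lo -0.22 to 0.51 for Siglecf and -0.031 to 0.00675 for Il5ra. Leaving out the dimmest 40% of genes kept 10916 genes and 0 of the 5 members, so it gave no value for them.

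Over all genes, calls in LK GFPhi numbered 1740, from 491 in the 6 arrays alone to 4034 with the block, and without KO replicate 3 they were 1088. In the other comparisons the lowest and highest counts were 570 and 1367 (837 in LSK GFPhi), 216 and 1210 (483 in LK GFPneg), 199 and 1120 (389 in LSK GFPneg-lo), 2614 and 7150 (4256 between the KO LK populations) and 2701 and 5271 (3380 between the WT LK populations). They were 43 and 577 (215 between the KO GFPhi populations), 149 and 3148 (827 between the WT GFPhi populations), and for the interactions 281 and 935 (454 with LK GFPneg), 6 and 103 (26 with LSK GFPhi) and 57 and 860 (187 with LSK GFPneg-lo). With no detection calls, a low reading of a member may be background.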
